A study of Mus musculus with 2 samples.

Results

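The lecticans, the hyaluronan genes and the tenascins were examined in cultured dentate gyrus (DG) astrocytes as a set of 10 genes chosen by symbol, out of 16302 gene symbols listed in WT, in β-arr1 KO or in both. The set holds the lecticans Vcan, Bcan, Ncan and Acan, the link protein gene Hapln1, the hyaluronan synthase genes Has1 and Has2, the hyaluronan receptor gene Cd44, and the tenascin genes Tnc and Tnr. The choice by symbol used no threshold on these data, though earlier results of them were known. All 10 were listed in both libraries, and 9 of them reached 1 FPKM (fragments per kilobase of transcript, scaled to the mapped fragments of the library) in at least one library and were analysed. The exception was Acan.

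Astrocytes were grown from the DG of adult C57BL/6 mice, either wild type (WT) or carrying a constitutive knockout of β-arrestin 1 (β-arr1 KO). The KO mice had been backcrossed onto C57BL/6J, and the animals were littermates or came from separately bred WT and KO lines. Cells of both genotypes were kept in the same medium with serum and then shaken to detach dividing cells, oligodendrocyte progenitors and neurons before RNA was taken. There was 1 library per genotype, made from pooled cDNA, so no difference between WT and β-arr1 KO has a replicate check and none was tested. A ratio of β-arr1 KO vs. WT above 3/2 or below 2/3, the limits used by the study, is called past the limits.

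Lecticans are large chondroitin sulfate proteoglycans of the extracellular matrix. One end of the core protein binds hyaluronan, a long unsulfated sugar chain that synthases at the cell surface extrude, and a link protein such as Hapln1 locks that bond. The other end binds tenascins, so that hyaluronan, lecticans and tenascins form one mesh, which astrocytes and oligodendrocyte precursors supply and which condenses around some neurons as perineuronal nets. CD44 holds hyaluronan at the cell surface.

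The tables held 15417 rows (15362 symbols) for WT and 15457 rows (15388 symbols) for β-arr1 KO, with medians of 7.04 and 7.16 FPKM. Both listed 14448 symbols, and the median log2 ratio of the analysed genes among these was 0.02. The depth, estimated from the steps between the lowest values, was 9.38 M mapped fragments for WT and 9.52 M for β-arr1 KO. Arrb1, the gene deleted in the KO, had 7.62 FPKM in WT against 2.72 FPKM in β-arr1 KO, for a ratio of 0.358. The Y-linked genes Ddx3y, Eif2s3y, Kdm5d and Uty were all listed in β-arr1 KO and none of these 4 was listed in WT, so genotype and the sex of the donor mice cannot be told apart in any ratio given here. Of the 9 astrocyte markers examined, all were detected in both libraries, with Gfap at 189 FPKM in WT against 192 FPKM in β-arr1 KO.

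Ncan, Tnr and Hapln1 were past the upper limit and Has1 was just past the lower one, which makes 4 of 9 analysed genes. Hapln1 reached 1 FPKM in β-arr1 KO alone and Has1 in WT alone, so each entered the count through the library where it was higher. With 1 FPKM required in both libraries, 2 of 7 were past the limits (Ncan and Tnr), against 1372 of 11622 over all genes. Across all 12646 analysed genes, 17.8% were past the limits, with 9.56% above and 8.28% below. Of the 6 genes of the set with at least 5 FPKM in one library, Ncan and Tnr were past the limits, where 12.5% of all genes of that level were. The median log2 ratio was 0.34 over the 9 genes and 0.02 over all analysed genes. In 7 of the 10 genes the value was higher in β-arr1 KO, and Vcan, Acan and Has1 were the 3 with a lower value. For Has2, Vcan, Acan and Has1 the interval of counting error (given below) held 1, so counting alone leaves their direction open. The share of all genes with a higher value in β-arr1 KO was not counted, so the 7 of 10 is only a description. In a bulk culture, fewer cells of a type cannot be told apart from less RNA per cell, and the same holds for more cells and more RNA.

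**Figure D1:**
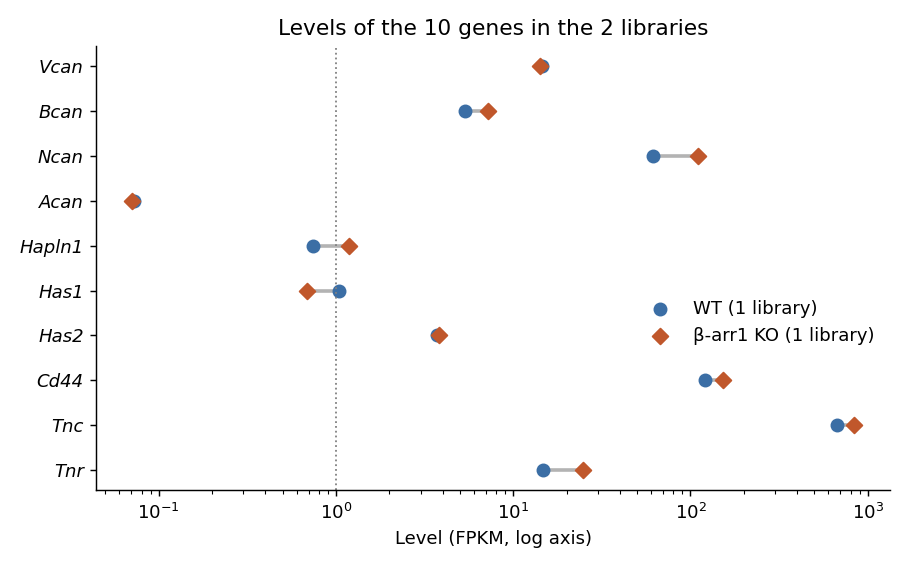
Level of each of the 10 genes in the WT library (blue circles) and the β-arr1 KO library (orange diamonds), in FPKM on a log axis, with a dotted line at 1 FPKM. The levels run from Acan, near 0.07 FPKM in both libraries, to Tnc at 673 and 842 FPKM, and the widest gaps are those of Ncan, Tnr, Hapln1 and Has1.

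The 10 genes differed widely in level. In WT the order from high to low was Tnc, Cd44, Ncan, Tnr, Vcan, Bcan, Has2, Has1, Hapln1 and Acan. Neighbours in this order were compared by their exact 95% Poisson intervals, which cover counting error only. Tnr (13.5 to 15.8 FPKM) and Vcan (13.9 to 15.3 FPKM) could not be ordered in WT, nor could Has1 (0.614 to 1.64 FPKM) and Hapln1 (0.513 to 1.04 FPKM), while the other neighbouring genes had intervals that did not overlap. In β-arr1 KO Tnr (23.2 to 26.1 FPKM) stood clear of Vcan (13.4 to 14.8 FPKM). Hapln1 (0.899 to 1.55 FPKM) had a higher value than Has1 (0.367 to 1.18 FPKM) there, with overlapping intervals. The other genes kept their places.

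Among the lecticans, Ncan (NCBI gene 13004, on the minus strand of chromosome 8 at 72616984 to 72644743 in mm9, 15 exons) encodes neurocan, the lectican of developing and injured nervous tissue. It had 61.8 FPKM in WT against 110.1 FPKM in β-arr1 KO. The KO library was the higher, and Ncan moved up from rank 1081 to rank 533 of the listed genes. The ratio was 1.78, with a 95% counting interval of 1.72 to 1.85 from about 4060 and 7396 estimated fragments. This interval lay wholly above 3/2, and 4.20% of genes with at least 5 FPKM had a higher ratio. Counting intervals hold the error of counting fragments alone, with the longest annotated transcript used to estimate their number, and say nothing about the spread between cultures or animals.

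Vcan (NCBI gene 13003, minus strand of chromosome 13, 89794915 to 89882117) encodes versican, whose splice forms differ in the stretches that carry chondroitin sulfate. It had 14.6 FPKM in WT against 14.1 FPKM in β-arr1 KO. The libraries were nearly level, with a ratio of 0.969 and an interval of 0.905 to 1.04, or 0.820 to 1.15 if only the shortest coding transcript of over 1000 bases was expressed. GENCODE annotates 10 Vcan transcripts in NCBIM37 (mm9), whose longest has 12429 bases and 17 exons. The deposited value is not split by transcript, so a shift between splice forms would not show.

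Bcan (NCBI gene 12032, minus strand of chromosome 3, 87791453 to 87804278, 14 exons) encodes brevican, the short lectican of the adult brain. It had 5.32 FPKM in WT against 7.24 FPKM in β-arr1 KO. The KO value was the higher but stayed within the limits, with a ratio of 1.36 and an interval of 1.10 to 1.69 that reached past 3/2. Acan (NCBI gene 11595, plus strand of chromosome 7, 86198369 to 86259985, 17 exons) encodes aggrecan, the main lectican of cartilage and of perineuronal nets. It had 0.0729 FPKM in WT against 0.0710 FPKM in β-arr1 KO, about 5 fragments in each library. At this depth a difference in Acan was not detectable unless it was large, since the ratio of 0.974 had an interval of 0.224 to 4.23.

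Set side by side on the FPKM scale, which allows levels of different genes to be compared per length, the make-up of the lecticans differed between the libraries. Ncan made up 75.6% of the summed lectican level in WT and 83.7% in β-arr1 KO. Vcan made up 17.8% and 10.7%, and Bcan 6.50% and 5.50%. The sum itself was 81.7 FPKM in WT against 132 FPKM in β-arr1 KO, for a ratio of 1.61, and most of the difference was that of Ncan. Within a library, Ncan stood 4.24 times above Vcan in WT and 7.80 times in β-arr1 KO, and 11.6 and 15.2 times above Bcan.

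The bases just upstream of the lectican start sites are shown to set the gene past the limit beside those that were within them. The sequences are RefSeq promoter windows of the GRCm38.p6 table, each found once in NCBIM37 (mm9) by exact match. Each line holds the 60 bases before the RefSeq start on the coding strand, 5′ to 3′, and capitals mark TATAA, searched on both strands.
Ncan, chr8:72644744-72644803 (minus strand): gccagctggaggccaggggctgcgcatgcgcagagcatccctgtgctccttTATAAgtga
Vcan, chr13:89882118-89882177 (minus strand): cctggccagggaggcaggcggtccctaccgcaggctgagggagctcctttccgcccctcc
Bcan, chr3:87804279-87804338 (minus strand): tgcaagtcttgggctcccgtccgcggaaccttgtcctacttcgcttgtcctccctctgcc
Of the 3 sequences, the one of Ncan holds TATAA, whose first base lies 9 bases before the start. Over the 10 windows of 9 genes of the set (Tnc has 2 starts), 2 held TATAA in these 60 bases, against 7.25% of 32841 mouse windows. The Sp1-type letters GGGCGG, searched on both strands over 250 bases, were found in 6 of the 10 windows, those of Ncan, Vcan and Bcan included, against 32.7% of all windows. Both Tnc windows are among the 6 and overlap, since their starts lie 79 bases apart. The windows of Bcan, Vcan and Ncan were 62%, 62.4% and 54.4% G or C, where the median of all windows was 52.4%. A match describes the letters of a window and is no evidence of binding. Has2 had no window in the table.

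Hapln1 (NCBI gene 12950, plus strand of chromosome 13, 89680241 to 89751437, 5 exons) encodes the link protein that fixes lecticans to hyaluronan. It had 0.741 FPKM in WT against 1.19 FPKM in β-arr1 KO. The KO library was the higher, but both values were near the 1 FPKM minimum and rested on about 34 and 56 fragments. The ratio of 1.61 therefore had a wide interval, 1.03 to 2.54, which included 3/2. Its locus ends 43477 bases from that of Vcan, which lies on the other strand, and the neighbouring genes differed in ratio (1.61 for Hapln1 and 0.969 for Vcan). The bases before the Hapln1 start are shown since it was the third gene past the upper limit.
Hapln1, chr13:89680181-89680240 (plus strand): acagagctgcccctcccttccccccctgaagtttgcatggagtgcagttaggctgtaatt
Neither TATAA in these bases nor GGGCGG in the 250 bases was found. The window held 2 CG dinucleotides, where the median window held 6.

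The other link protein genes lie next to lecticans too. Hapln4, which encodes the link protein of brevican-rich nets and whose locus ends 2222 bases from that of Ncan, had 1.72 FPKM in WT against 2.55 FPKM in β-arr1 KO. The ratio, 1.48 (1.04 to 2.12), was just within the limit, and Ncan was 35.9 times as high as Hapln4 in WT and 43.2 times in β-arr1 KO. Hapln3, which lies 1927 bases from Acan, had 1.08 FPKM in WT against 0.806 FPKM in β-arr1 KO, with a ratio of 0.747 (0.421 to 1.31). So of the 3 detected link protein genes, Hapln1 and Hapln4 were higher and Hapln3 was lower in β-arr1 KO, and all 3 were at or below 2.55 FPKM. Hapln2 was not analysed here.

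Of the hyaluronan synthases, Has2 (NCBI gene 15117, minus strand of chromosome 15, 56497182 to 56526101, 4 exons) makes the long chains of most embryonic and glial matrix. It had 3.73 FPKM in WT against 3.81 FPKM in β-arr1 KO. The libraries were level, with a ratio of 1.02 and an interval of 0.805 to 1.29, which lies inside the limits. The annotation places the antisense gene Has2as on the other strand of the same locus. Since no source used here says that the counting used strand, reads of the pair cannot be told apart. Annotated genes also overlap the loci of Vcan, Cd44, Tnc and Tnr, and the one in the Tnr locus (Gm10530) lies on the same strand as Tnr. Their part in the values was not tested.

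Has1 (NCBI gene 15116, minus strand of chromosome 17, 17980290 to 17992152, 5 exons) encodes a less active synthase. It had 1.04 FPKM in WT against 0.689 FPKM in β-arr1 KO, about 18 and 13 fragments. The WT value was the higher, and the ratio of 0.665 fell just below 2/3, but its interval ran from 0.300 to 1.44. With 0.1 FPKM added to both values, or with both libraries scaled to the same total, Has1 was no longer past the limit. Has3, the third synthase gene, had 0.164 FPKM in WT against 0.0711 FPKM in β-arr1 KO, about 9 and 4 fragments, with an interval of 0.0974 to 1.55. The summed synthase level was 4.93 FPKM in WT against 4.57 FPKM in β-arr1 KO, and Has2 made up 75.6% and 83.3% of it.

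Cd44 (NCBI gene 12505, minus strand of chromosome 2, 102651300 to 102741822, 19 exons) encodes the main cell surface receptor for hyaluronan, which also binds osteopontin and, inside the cell, the ERM proteins. It had 120.5 FPKM in WT against 152.4 FPKM in β-arr1 KO, ranks 458 and 338. The KO value was the higher, with a ratio of 1.26 and an interval of 1.22 to 1.31 that lay above 1 and within the limits. The interval was 1.18 to 1.36 with the shortest coding transcript, and 14 transcripts are annotated, so the variant exons were not resolved. Cd44 stood 32.3 times above Has2 in WT and 40.1 times in β-arr1 KO.

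Tnc (NCBI gene 21923, minus strand of chromosome 4, 63620819 to 63708049, 26 exons) encodes tenascin-C, an oligomeric glycoprotein of stem cell niches, migrating cells and reactive glia. With 673 FPKM in WT against 842 FPKM in β-arr1 KO it was the highest of the 10 genes, ranked 41 and 30 among all listed genes. The KO library was the higher, with a ratio of 1.25 and an interval of 1.24 to 1.27, so the counting error was small beside the difference and the value was within the limits. Relative to Gfap in the same library, Tnc was 3.57 times as high in WT and 4.39 times as high in β-arr1 KO.

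Tnr (NCBI gene 21960, plus strand of chromosome 1, 161453900 to 161861833 in WT, 22 exons) encodes tenascin-R, made by oligodendrocyte lineage cells and some neurons, which cross-links lecticans in perineuronal nets. It had 14.6 FPKM in WT against 24.6 FPKM in β-arr1 KO, and moved from rank 4872 to rank 3065. The KO library was the higher, with a ratio of 1.68 and an interval of 1.53 to 1.86, or 1.51 to 1.88 with the shortest coding transcript. Both lay above 3/2, and 4.80% of genes with at least 5 FPKM had a higher ratio. The Tnr locus in the KO table began 5746 bases upstream of that in the WT table, at 161448154. The length behind the 2 values can therefore differ, and its part in the ratio was not tested.

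**Figure D2:**
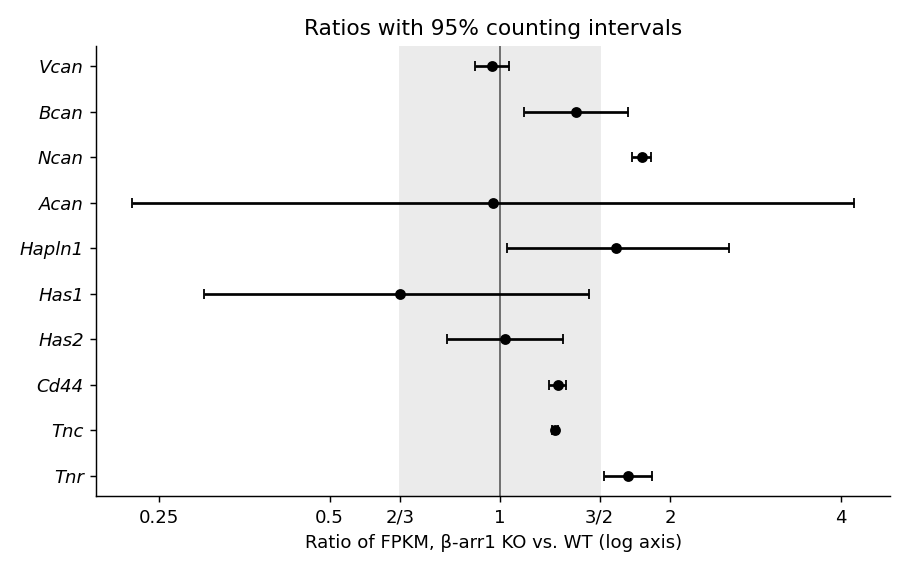
Ratio of FPKM, β-arr1 KO vs. WT, for each of the 10 genes on a log axis, with 95% counting intervals from estimated fragments and the limits of 2/3 to 3/2 shaded. The intervals of Ncan (1.72 to 1.85) and Tnr (1.53 to 1.86) lie wholly above the shading, those of Tnc and Cd44 lie inside it above 1, and that of Acan spans 0.224 to 4.23.

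The start sites of both tenascins are shown because Tnr was past the limit and Tnc was not. Tnc has 2 RefSeq starts. The upstream one is the edge of the deposited locus, and the 60 bases before it hold no TATAA. The downstream one, which lies 79 bases inside that edge, is given here, so the TATAA below belongs to this start alone.
Tnc, chr4:63707971-63708030 (minus strand): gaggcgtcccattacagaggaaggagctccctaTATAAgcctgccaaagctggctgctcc
Tnr, chr1:161453840-161453899 (plus strand): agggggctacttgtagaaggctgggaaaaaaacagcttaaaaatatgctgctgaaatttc
The Tnc bases hold TATAA, in capitals, with its first base 27 bases before that start. Neither TATAA nor GGGCGG was found for Tnr, whose window held 2 CG dinucleotides. The RefSeq start of Tnr was the edge of the WT locus, and the KO locus passed over it.

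The tenascin total was 691 FPKM in WT against 867 FPKM in β-arr1 KO, of which Tnc made up 97.3% and 97.0%. The share of Tnr was 2.12% in WT and 2.84% in β-arr1 KO. Tnc stood 46.0 times above Tnr in WT and 34.2 times in β-arr1 KO. Tnxb, a tenascin of connective tissue, had 3.60 FPKM in WT against 0.850 FPKM in β-arr1 KO, for a ratio of 0.236 (0.188 to 0.295), and its locus in the KO table began 9903 bases later. Tnn, encoding tenascin-N, had 0.232 FPKM and 0.181 FPKM, about 12 and 10 fragments. So Tnc and Tnr were higher in β-arr1 KO, and Tnxb was lower and past the limit.

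Ncan and Tnr were the 2 genes of the set whose intervals lay above 3/2. Ncan was 4.22 times as high as Tnr in WT and 4.47 times in β-arr1 KO. This near-equal proportion restates their similar ratios (1.78 and 1.68) and is no separate result. The other analysed lecticans, Vcan (0.969) and Bcan (1.36), had ratios below that of Tnr, so their proportion to Tnr was lower in β-arr1 KO. Tnc was 10.9 times as high as Ncan in WT and 7.64 times in β-arr1 KO. These are values of single libraries, given as a description.

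**Figure D3:**
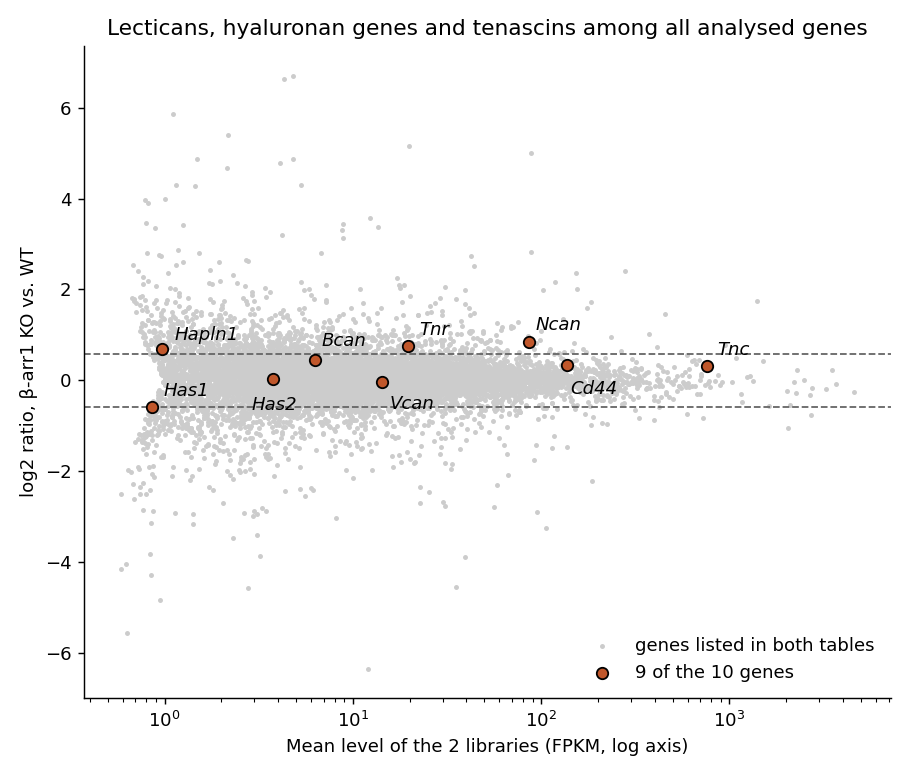
Mean level of both libraries (FPKM, log axis) against the log2 ratio of β-arr1 KO vs. WT for all analysed genes listed in both tables (grey), with 9 of the 10 genes in orange and dashed lines at 3/2 and 2/3. Hapln1 and Has1 lie at the low end, where the grey cloud is widest, while Ncan and Tnr lie above the upper line at levels where fewer genes are past it.

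Other genes that build, modify, bind or cut this matrix were counted in 9 lists with 84 genes, of which 69 were analysed. Of these 69, 6 were above the upper limit and 11 below the lower one, 24.6% in all, where 17.8% of all analysed genes were past the limits (9.56% above and 8.28% below). Chsy3, Itih2, Tnxb, Adamts15 and Rtn4rl2 reached 1 FPKM only in the library where they were higher, so each entered the count through it. When 1 FPKM was required in both libraries, 12 of 61 were past the limits, against 1372 of 11622 over all genes. The median log2 ratio of the 69 was -0.08, against 0.02 over all analysed genes. Of the list genes named below, Chsy3, Chst11, Chst15, Itih2, Itih3, App, Cspg4, Rtn4rl2, Fn1 and Adamts4 had locus bounds that differed between the libraries. The length behind their values can therefore differ, and its part in their ratios was not tested.

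Of 11 analysed genes that assemble chondroitin sulfate chains, 10 were within the limits, and the median log2 ratio was -0.17. Chpf, a polymerising factor and the highest of the list, had 56.2 FPKM in WT against 52.5 FPKM in β-arr1 KO. Chsy3, a synthase and the lowest, had 1.83 FPKM and 0.879 FPKM and was past the lower limit, with a ratio of 0.479 (0.278 to 0.805). Of 9 analysed genes for sulfation and epimerisation, 2 were above and 1 was below, with a median of -0.09. Both genes above it encode 6-O-sulfotransferases. Chst3 had 1.01 FPKM in WT against 1.58 FPKM in β-arr1 KO, for a ratio of 1.56 (1.10 to 2.21), and Chst7 had 5.85 FPKM and 9.71 FPKM, for a ratio of 1.66 (1.31 to 2.12). Chst15, which adds a further sulfate to chains already 4-sulfated, had 5.28 FPKM and 3.07 FPKM, for a ratio of 0.581 (0.469 to 0.718). The 4-O-sulfotransferase genes Chst11 and Chst12 were the highest of this list and went in opposite directions within the limits, from 22.0 to 28.7 FPKM and from 29.2 to 22.7 FPKM. The lowest was Chst13, with 0.212 and 0.206 FPKM.

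Of 13 analysed genes for hyaluronan precursors, binding and turnover, 11 were within the limits and the median was 0.19. Itih2 and Itih3, which encode heavy chains that are transferred onto hyaluronan, were the 2 below. Itih2 had 2.44 FPKM in WT against 0.898 FPKM in β-arr1 KO, for a ratio of 0.368 (0.223 to 0.591), and Itih3 had 3.27 FPKM and 1.42 FPKM, for a ratio of 0.436 (0.297 to 0.632). Stab1, a scavenger receptor that takes up hyaluronan, was the highest of the list with 91.4 FPKM in WT against 65.5 FPKM in β-arr1 KO, and Stab2, a related receptor, was the lowest in WT with 0.0526 FPKM and had 0.0384 FPKM in β-arr1 KO. Itih1, Itih4 and Hyal3 had 0.0721, 0.0705 and 0.126 FPKM in WT and no value above 0 in β-arr1 KO. Hyal1 and Spam1 were not analysed here.

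Of 8 other chondroitin sulfate proteoglycans, Cspg5 (neuroglycan C) was above the limit, Tgfbr3 (betaglycan) was below it, and the median was -0.07. Cspg5 had 2.50 FPKM in WT against 3.88 FPKM in β-arr1 KO, for a ratio of 1.55 (1.18 to 2.05). Tgfbr3 had 3.21 FPKM and 1.99 FPKM, for a ratio of 0.620 (0.486 to 0.790). App, the amyloid precursor that also exists as a proteoglycan, was the highest, with 501 FPKM in WT against 421 FPKM in β-arr1 KO. Of 5 neuronal receptors for chondroitin sulfate, Rtn4rl2 (Nogo receptor family) was above the limit with 0.576 FPKM in WT against 1.62 FPKM in β-arr1 KO, but from only about 6 and 18 fragments, so its ratio of 2.81 had an interval of 1.07 to 8.66. Ptprs, a receptor phosphatase and the highest of the 5, had 44.2 and 41.0 FPKM.

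Among 9 analysed receptors and partners of tenascins the median was 0.07, with 1 gene above and 1 below. Cntn1, a neural adhesion molecule that binds tenascin-R, was above with 5.87 FPKM in WT against 9.46 FPKM in β-arr1 KO, for a ratio of 1.61 (1.39 to 1.86). Egfr, whose product can bind repeats of tenascin-C, was below with 24.4 FPKM in WT against 14.5 FPKM in β-arr1 KO, for a ratio of 0.593 (0.555 to 0.635). Fn1, encoding fibronectin, was the highest with 2490 FPKM in WT against 1700 FPKM in β-arr1 KO, for a ratio of 0.683 just within the limit. The lowest was the integrin gene Itgb6, with 0.159 and 0.302 FPKM.

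Of 7 partners of CD44, 5 were within the limits and the median was 0.05. Ezr, an ERM protein gene, was above with 114 FPKM in WT against 179 FPKM in β-arr1 KO, for a ratio of 1.57 (1.50 to 1.64). Spp1, which encodes the ligand osteopontin, was the highest of the list and was below with 933 FPKM in WT against 521 FPKM in β-arr1 KO, for a ratio of 0.559 (0.542 to 0.576). The lowest was the sheddase gene Adam17, with 19.4 and 18.4 FPKM.

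Of 6 analysed proteases that cut lecticans, 3 were below the limit and none above, with a median of -0.31, where 8.28% of all analysed genes were below. The count was 2 with 1 FPKM required in both libraries, 2 with a pseudocount of 0.1 and 1 with a pseudocount of 1. The 3 were aggrecanase genes. Adamts4 had 5.93 FPKM in WT against 3.41 FPKM in β-arr1 KO, for a ratio of 0.575 (0.462 to 0.712), and Adamts5 had 9.54 FPKM and 6.25 FPKM, for a ratio of 0.655 (0.582 to 0.737). Adamts15 had 1.07 FPKM and 0.691 FPKM, for a ratio of 0.644 (0.416 to 0.986). Adamts15 reached 1 FPKM in WT alone, so it entered the count through the library where it was higher. The list did not move as one, since Adamts1, its highest member and also a lectican protease, had 34.8 FPKM in WT against 49.0 FPKM in β-arr1 KO, for a ratio of 1.41 (1.32 to 1.51). The summed level of the list was 56.1 FPKM in WT against 64.9 FPKM in β-arr1 KO. The lowest was Adamts20, with 0.350 and 0.392 FPKM.

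**Figure D4:**
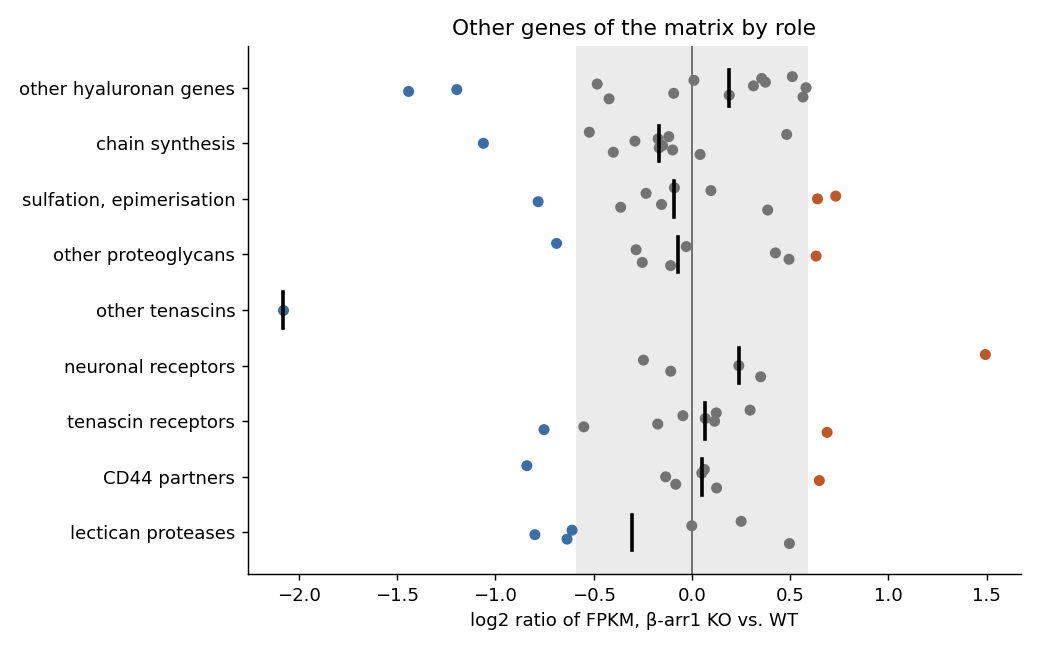
Log2 ratio of FPKM, β-arr1 KO vs. WT, for the 69 analysed genes of the 9 other matrix lists, one point per gene, with the median of each list as a black bar and the limits shaded. Points past the upper limit are orange (6 genes) and points past the lower limit are blue (11 genes), 3 of them lectican proteases.

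Ncan and Tnr are also made by oligodendrocyte precursors, so the markers of that cell type are given beside them. Of its 7 markers, 6 were listed and 5 analysed, and 4 of the 5 were above the limit, where 9.56% of all analysed genes were. The summed level of the 6 was 67.7 FPKM in WT against 111 FPKM in β-arr1 KO, for a ratio of 1.64. The median log2 ratio of the 5 was 0.95. Pdgfra had 3.12 and 6.03 FPKM, Olig1 32.6 and 56.0 FPKM, Olig2 6.19 and 13.1 FPKM, and Sox10 0.907 and 1.82 FPKM in WT and β-arr1 KO. Sox10 reached 1 FPKM in β-arr1 KO alone, so it entered the count through the library where it was higher. Cspg4 was within the limits with 24.0 and 33.8 FPKM (ratio 1.41), and Nkx2-2, which stayed below 1 FPKM, went the other way with 0.844 and 0.650 FPKM (ratio 0.771). Relative to Olig1 in the same library, a pairing chosen after the values were seen and the one of the 4 whose ratio (1.71) was nearest to those of Ncan and Tnr, Ncan was 1.89 times as high in WT and 1.97 times in β-arr1 KO. Tnr was 0.448 times as high as Olig1 in WT and 0.440 times in β-arr1 KO. Vcan, another lectican of these precursors, went from 0.446 to 0.252 times the level of Olig1. The part of these cells in the ratios of Ncan and Tnr was not tested. The locus bounds of Olig2 and Cspg4 also differed between the libraries, so the length behind their values can differ.

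Astrocyte markers moved in the same direction in part. Of 9 analysed, 4 were above the limit (Aqp4, S100b, Slc1a2 and Aldoc) and none below, where 9.56% of all analysed genes were above. Within the limits, Gja1 went the other way with 34.0 and 29.4 FPKM (ratio 0.862). Gfap (1.02), Sox9 (1.14), Slc1a3 (1.15) and Aldh1l1 (1.39) had ratios above 1. The sum of the 9 was 313 FPKM in WT against 358 FPKM in β-arr1 KO. Against S100b, also chosen after its value was seen, Ncan was 2.11 times as high in WT and 2.13 times in β-arr1 KO, and against Gfap 0.328 and 0.574 times. Of 4 analysed neural precursor markers, 2 were above (Sox2 and Prom1) and the sum was 148 and 197 FPKM, with Dcx at 0.0348 FPKM in β-arr1 KO and no value above 0 in WT. None of 3 analysed oligodendrocyte markers was past the limits (sum 39.8 and 42.4 FPKM), with Mog at 0.0662 FPKM in β-arr1 KO and no value above 0 in WT. The part of these shifts in the ratios of Ncan, Tnr and Hapln1 was not tested. The locus bounds of S100b, Aldoc, Aldh1l1 and Prom1 also differed between the libraries, so the length behind their values can differ.

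Most markers of fibroblasts and mural cells went the other way, beside the lower values of Tnxb, Itih2 and Fn1. Of 5 analysed, 4 were below the limit (Col1a1, Col1a2, Dcn and Rgs5) and none above, where 8.28% of all analysed genes were below. Dcn, with 6.11 FPKM in WT against 0.831 FPKM in β-arr1 KO, entered the count through the library where it was higher. Acta2, the highest of the list, was level with 2478 and 2469 FPKM (ratio 0.996). The sum, 3004 FPKM in WT against 2745 FPKM in β-arr1 KO, was mostly that of Acta2. Lum had 0.660 FPKM in WT and no value above 0 in β-arr1 KO. None of 5 microglial markers was past the limits (235 and 214 FPKM), beside the lower values of Stab1 and Spp1. Of 3 analysed endothelial markers, Pecam1 was above with 3.03 FPKM in WT against 5.22 FPKM in β-arr1 KO. Cdh5 was below with 31.8 and 16.1 FPKM, and Cldn5 was within the limits. The sum of the 4 listed, 36.6 and 22.5 FPKM, was mostly that of Cdh5. Of the neuronal markers only Map2 reached 1 FPKM, and the sum was 19.4 FPKM in both libraries. The part of these cell types in the ratios was not tested. The locus bounds of Rgs5, Acta2, Cdh5 and Map2 also differed between the libraries, so the length behind their values can differ.

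**Figure D5:**
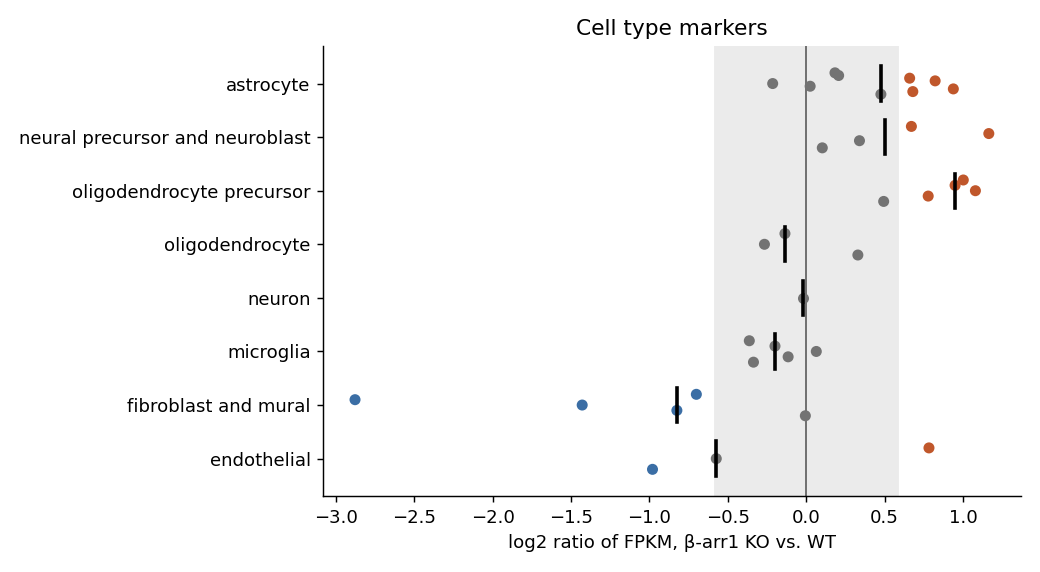
Log2 ratio of FPKM, β-arr1 KO vs. WT, for the analysed markers of 8 cell types, one point per gene, with list medians as black bars and the limits shaded. Oligodendrocyte precursor markers lie mostly above the upper limit (orange) with a median of 0.95, and fibroblast and mural markers mostly below the lower limit (blue).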

How the data were processed

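RNA of cultured DG astrocytes was sequenced as 1 WT and 1 β-arr1 KO library. The authors aligned read pairs to mm9 with TopHat 1.4.0 (version per the submitters' processing notes), ran Cufflinks and deposited 1 FPKM value per gene row and library, which corrects for length and depth. The values are not counts, and listed values are all above 0. Tables were joined by symbol, the highest row was kept where rows shared one, and a gene in one table alone took 0 elsewhere. Analysis was restricted to genes of 1 FPKM or more in either library, by the ratio of deposited values without a pseudocount. With 1 library per genotype there is no SD and no test.

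Depth was estimated from genes below 0.15 FPKM with 1 transcript of over 1000 bases, of which 70.7% (WT) and 70.9% (β-arr1 KO) lay within 5% of a whole-fragment step (13.4% and 11.5% after shuffling). Intervals are 95% Clopper-Pearson bounds on the KO share of estimated fragments, centred on the FPKM ratio. Starts in the tables were raised by 1 to count from 1. They then equalled GENCODE starts of NCBIM37 in 38.3% and 38.6% of genes, and the chromosome was the same in 99.9%. All genes of the set were named, and from the other lists those past the limits and the highest and lowest. Other genes named beside them were chosen after their values were seen. The set and the lists were chosen with earlier results of these data known. The computation was tested on simulated data. Alternatives were other minimums, pseudocounts, scalings, limits and summed rows. Genes with equal bounds in both tables, and a shorter transcript for the intervals, were added after seeing the data. Software was scipy 1.17.1, pandas 2.3.3, numpy 2.4.6 and matplotlib 3.10.9 under Python 3.11.15.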

Additional observations from a re-analysis of the deposited data

How the results depend on the processing

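The ratios of Ncan (1.75 to 1.79) and Tnr (1.64 to 1.69) stayed above 3/2 under both pseudocounts, all 3 scalings and summed rows. Hapln1 fell to 1.26 with a pseudocount of 1, and Has1 reached 0.830 there and was within the limits in 3 of these 6 alternatives, both pseudocounts and the same total among them. The count of genes of the set past the limits, 4, became 2 with a minimum of 5 FPKM, with 1 FPKM in both libraries or with a pseudocount of 1 (Ncan and Tnr each time), and 0 with limits of 2 and 1/2. Among genes whose deposited bounds were equal it was 3 of 7 (Hapln1, Has1 and Ncan), since Tnr does not enter there. Over all analysed genes, 2256 of 12646 became 3969 of 15260 with a minimum of 0.1 FPKM and 1179 of 9397 with 5 FPKM. It was 1372 of 11622 with 1 FPKM in both libraries, 1163 of 12646 with limits of 2 and 1/2, and 1015 of 7338 with equal bounds. Over the other lists, 17 of 69 became 8 of 49 with a minimum of 5 FPKM and 12 of 61 with 1 FPKM in both libraries. It was 5 of 69 with limits of 2 and 1/2, and 10 of 43 with equal bounds (the last of these alternatives was chosen after seeing the data). Fewer genes enter with equal bounds and under each of these minimums except that of 0.1 FPKM, under which more enter. The KO scaling factors were 0.987 (median ratio), 1.00 (total) and 0.982 (upper quartile). Hapln1, Has1 and Acan are limited by depth. No paired analysis was possible because there was 1 library per genotype, and for the same reason no library could be left out.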
